A study of Danio rerio with 11 samples.

Results

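The methylation peak lists of adult zebrafish heart and liver were compared with each other. The heart list held 50110 peaks and the liver list 50170, which together make 100280 of the 816382 peaks in the 9 lists of the series. A heart peak was called heart-only when no liver interval overlapped it by at least 1 bp, and a liver peak was called liver-only in the same way. A tissue-only peak was called displaced when the nearest peak center of the other tissue lay within 1000 bp, and isolated when none did. The study used MBD-seq, in which DNA fragments bound by a methyl-CpG binding domain protein are sequenced, on untreated Tübingen/AB fish and on embryos treated with methotrexate (MTX). Heart, liver, eye and brain were dissected from adult females and pooled over animals, so a value stands for a pool and not for a single fish. The other lists came from sperm of adult males, one-cell embryos, embryos at the midblastula transition (mbt), embryos at 3 days post-fertilization (3dpf), and 3dpf embryos that received 400 μM methotrexate from the one-cell stage (MTX-3dpf). No transgene, mutant allele or other treatment is given for these groups. Heart, liver and eye were sequenced in lane 4, and each was represented by 1 library, so nothing below could be tested against the spread between replicates. The brain list pools the reads of lanes 4 and 5.

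Methylation of cytosine in CpG dinucleotides covers most of a vertebrate genome, and much of it is set early in development and copied at each cell division by the maintenance methyltransferase DNMT1. Tissues therefore carry largely the same map, and differ at a minority of places, which in vertebrates often lie at distal regulatory sequence. The heart is made up mainly of cardiomyocytes, endothelium, fibroblasts and blood, and the liver mainly of hepatocytes with bile duct, endothelial and blood cells. A peak list of a whole organ averages over these cell types, and a peak present in few of the cells cannot be told apart from a low-scoring peak in all of them. The lists hold positions and scores alone, so the labelled tissues could not be checked against marker genes.

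Heart and liver shared 45385 peaks, which was 90.6% of the heart list and 90.5% of the liver list. Each shared heart peak had its own liver partner, the median distance between the centers of a pair was 12 bp, and 65.7% of the pairs lay within 20 bp. The shared peaks made up 0.827 of the union of the lists (the Jaccard index), against 0.826 for heart and eye and 0.803 for liver and eye. Of the heart peaks, 4725 were heart-only, a percentage of 9.43, and 4785 of the liver peaks were liver-only, a percentage of 9.54. Of the heart-only peaks, 1144 were displaced and 3581 were isolated, the latter a percentage of 7.15 of the heart list. The liver list held 1262 displaced and 3523 isolated peaks, the latter a percentage of 7.02. Because shared peaks pair 1 to 1, the near-equal lengths of the lists fix near-equal numbers of tissue-only peaks. These numbers therefore cannot show whether either tissue has an excess. The 95% Wilson interval was 9.18 to 9.69% for the heart-only share and 9.28 to 9.80% for the liver-only share. Intervals here and below cover counting error only.

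The isolated peaks mostly had the lowest scores of their lists. The score that the peak caller gave each peak has no stated unit, is not a measure of how methylated the DNA is, and was used as a percentile rank within its own list, from 0 for the lowest to 100 for the highest. Percentiles of a place in lists of different lengths do not compare directly, and shared heart peaks found in brain had a median percentile of 68.6 there. The median percentile was 8.58 for isolated heart-only peaks and 9.42 for isolated liver-only peaks, whereas shared peaks had medians of 53.3 in heart and 53.2 in liver. Of the isolated peaks, 2011 (56.2%) in heart and 1837 (52.1%) in liver fell within the lowest decile of their list, the 10% of its peaks with the lowest scores,, and 162 in heart and 243 in liver stood above the median of their list. Displaced peaks did not share this rank, with medians of 54.1 in heart and 48.6 in liver. Pooled over both kinds, heart-only peaks had a median percentile of 11.1 and liver-only peaks of 12.4.

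Read along the score, the lists disagreed most at the bottom, least in the upper middle, and somewhat more again at the very top. In the lowest decile of the heart list 44.2% of the peaks (95% interval 42.8 to 45.6%) were without a liver peak, and in the lowest decile of the liver list 41.5% (40.1 to 42.8%) were without a heart peak. The share of heart peaks without a liver peak was 1.94% in the seventh decile and 6.17% in the highest decile. In the liver list the share in the highest decile was 6.37%. That rise consisted of displaced peaks, which numbered 266 of the 309 heart-only and 269 of the 320 liver-only peaks of the highest decile. Isolated peaks made up 0.858% of the highest decile in heart and 1.02% in liver.

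**Figure D1:**
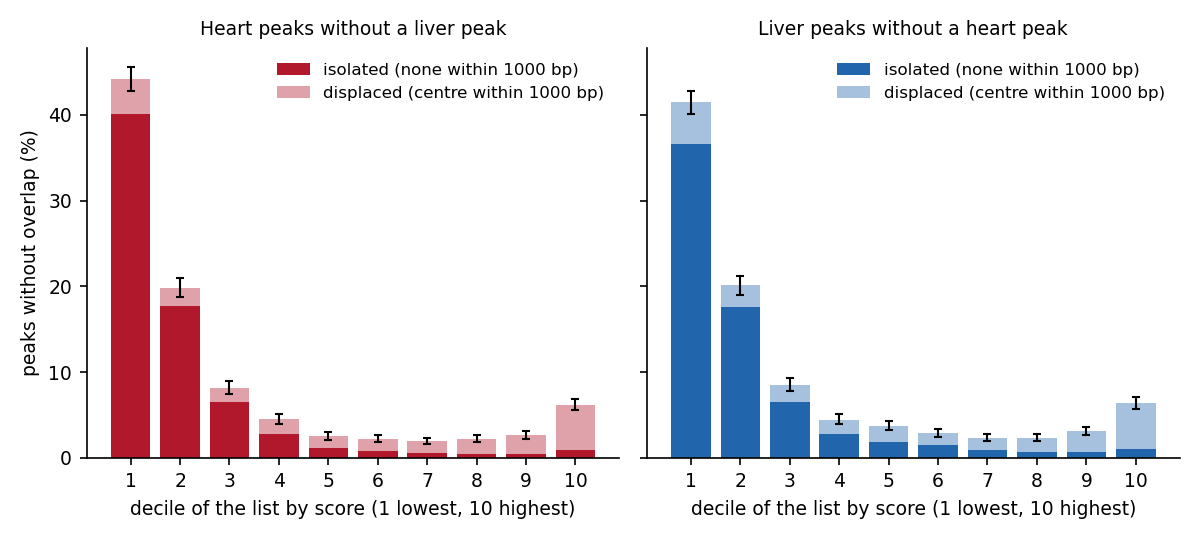
Share of heart peaks without an overlapping liver peak (left) and of liver peaks without an overlapping heart peak (right), in percent, by decile of each list by score. Dark bars are isolated peaks, pale bars displaced peaks, and error bars are 95% Wilson intervals of their sum; 44.2% of the lowest heart decile and 41.5% of the lowest liver decile had no partner.

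The high-scoring tissue-only peaks nearly all had a neighbor in the other tissue. Of the 497 heart-only peaks in the highest quartile of the list, 83.5% had a liver center within 1000 bp, 97.2% within 2000 bp and 99.6% within 5000 bp. For the 528 liver-only peaks of the highest quartile these shares were 80.5, 96.2 and 99.6%. In the lowest quartile, 345 of 3449 heart-only peaks and 425 of 3342 liver-only peaks (12.7%) had a center of the other tissue within 1000 bp, and 44.6 and 45.5% within 5000 bp. The limit of 1000 bp therefore cut through a group of high-scoring peaks whose partners lay slightly farther away.

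**Figure D2:**
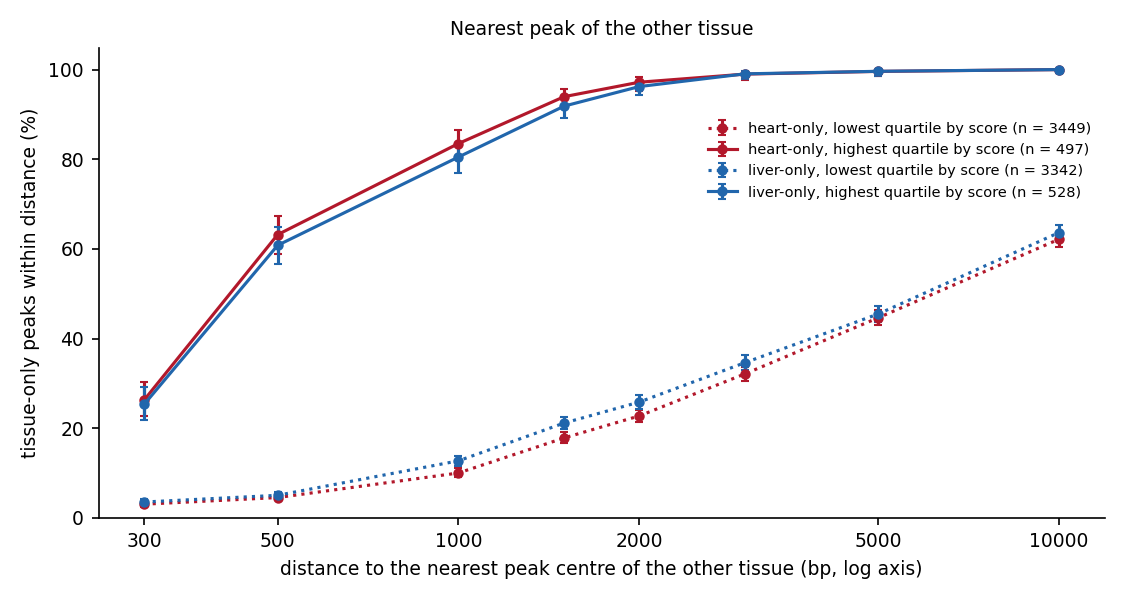
Share of tissue-only peaks, in percent, whose nearest peak center of the other tissue lies within the distance on the x axis (bp, log axis), for the lowest and the highest quartile of each list by score. Error bars are 95% Wilson intervals; in the highest quartile 97.2% of heart-only and 96.2% of liver-only peaks had a neighbor within 2000 bp.

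Of the 5 highest-ranked isolated peaks of each list, those of liver all had a heart center within 2000 bp. Those of heart had a liver center within that distance except for a pair on chromosome 4. The heart peak at chr13:15321017-15321217 (Zv9) stood at percentile 98.7 and the liver peak at chr13:15322021-15322221 at percentile 99.1, so that each was the nearest of the other at 1004 bp. The heart peak overlapped peaks of eye, mbt, 3dpf and MTX-3dpf, whereas the liver peak overlapped a peak of brain and of no other list. The same arrangement held at chr21:32686167-32686367 in heart, percentile 99.3, and chr21:32687618-32687818 in liver, percentile 99.0, whose centers were 1451 bp apart. There the heart center recurred in brain and 3dpf, and the liver center in eye and mbt. The heart peak at chr18:33217131-33217331, percentile 99.1, had a liver peak of percentile 94.1 at 1545 bp and was found in eye alone among the other lists.

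A further pair of the 5 in heart lay close together near the end of chromosome 4, at chr4:61294594-61294794 and chr4:61296513-61296713, with percentiles of 99.1 and 99.7. For both, the nearest liver peak was the one at chr4:61299701-61299901, itself at percentile 99.9, which lay 5107 and 3188 bp away. Of the 5 in liver, that at chr3:58334898-58335098 ranked highest, at percentile 99.8, with a heart peak of percentile 97.1 at 1428 bp. It was present in brain, mbt, 3dpf and MTX-3dpf, with percentiles from 99.87 in mbt to 99.99 in MTX-3dpf. The liver peak at chr6:27214180-27214380 overlapped peaks of all other lists except eye, and its heart neighbor lay 1300 bp away. The liver peak at chr10:12783588-12783788, percentile 98.8, overlapped no peak of any other list, and the heart peak nearest to it, of percentile 98.3, was 1518 bp away. Among the 20 highest-ranked isolated peaks, 17 in heart and 16 in liver had a center of the other tissue within 2000 bp.

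A limit of 5000 bp, chosen after these distances were seen, left 2122 heart-only and 2040 liver-only peaks. Nearly all scored low, with median percentiles of 8.38 and 8.86. Above the median of their list stood 21 in heart and 39 in liver. These high-scoring and distant peaks differed between the tissues in their share on chromosome 21 and in their share found in eye, and with it in all 7 other lists. Of the 21 heart peaks, 10 lay on chromosome 21, against 6.08% of all 2122 distant heart-only peaks, and 2 on chromosome 3. Of the 39 liver peaks, 1 lay on chromosome 21, against 2.55% of all 2040, and 9 on chromosome 3. Chromosomes 2, 10 and 22, picked after these counts were seen, each held 5 of these liver peaks and none of these heart peaks. Of all 3581 isolated heart-only and 3523 isolated liver-only peaks, 119 and 143 lay on chromosome 2 and 174 and 175 on chromosome 3. On chromosome 10 there were 130 and 158, and on chromosome 22 there were 135 and 108. The share of all distant peaks on these chromosomes is not given here. Eye held 20 of the 21 heart peaks (95.2%, 95% interval 77.3 to 99.2%), against 34.5% of all 2122 distant heart-only peaks, and 10 of the 39 liver peaks (25.6%, 14.6 to 41.1%), against 18.4% of all 2040. All 7 other lists held 9 of the 21 heart peaks, against 16.3% of all distant ones, and 4 of the 39 liver peaks, against 9.71%. Since eye is 1 of the 7, these are 9 of the 20 heart and 4 of the 10 liver peaks found in eye, and not a separate difference. In eye, the high-scoring heart peaks thus exceeded the share of all distant ones. The liver interval contained the share of all distant liver peaks. Score was not matched here, since 57.2 and 55.1% of all distant peaks fell within the lowest decile. The third quartile by score held 19 of the 21 heart and 37 of the 39 liver peaks. Eye held 58 of the 80 isolated heart peaks of that quartile (61.9 to 81.1%). Of its 140 isolated liver peaks eye held 70 (41.8 to 58.2%). The first interval overlapped that of the 21 heart peaks, and the second lay above that of the 39 liver peaks. In the other lists the intervals of the tissues overlapped. Brain held 20 and 32 peaks (95.2 and 82.1%, against 87.4 and 87.8% of all distant peaks), mbt 71.4 and 69.2%, 3dpf 76.2 and 71.8%, and MTX-3dpf 71.4 and 69.2%. Sperm held 66.7 and 48.7%, against 75.1 and 81.8% of all distant peaks, and one-cell embryos 52.4 and 41.0%, against 67.4 and 71.8%. The liver intervals (33.9 to 63.8% in sperm, 27.1 to 56.6% in one-cell embryos) lay below the shares of all distant liver peaks. The heart intervals contained the shares of all distant heart peaks. Among isolated liver peaks of the third quartile, sperm held 70 of 140 and one-cell embryos 57 of 140, with intervals overlapping those of the 39 peaks. None of the 21 heart peaks and 3 of the 39 liver peaks were absent from every other list.

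The heart peak at chr21:30373438-30373638 stood at percentile 78.9, and its percentile was 66.2 in eye, 34.3 in brain, 72.5 in sperm, 49.1 at the one-cell stage, 48.1 in 3dpf, 39.0 in MTX-3dpf and 46.9 in mbt. It was thus a peak of every list but liver, where the nearest peak lay 7299 bp away. The heart peak at chr21:26872893-26873093, percentile 69.7, was likewise present in all 7 other lists, with percentiles from 27.0 in 3dpf to 66.5 in mbt, and the nearest liver peak was 57956 bp away. The heart peak at chr3:42771100-42771300, also at percentile 69.7, was absent from one-cell embryos and liver, and the nearest liver peak was 51973 bp away. At chr21:16942528-16942728 and chr21:16937509-16937709 a pair of heart peaks with percentiles of 60.3 and 53.8 shared the liver peak nearest to them, at 88373 and 93392 bp. Both were found in eye and brain, and the second of them in no other list.

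Among the 39 liver peaks, that at chr3:18730841-18731041 stood at percentile 74.8 and was present in all 7 other lists, with percentiles from 11.5 in eye to 86.1 in mbt. The liver peak at chr2:3040296-3040496, percentile 73.5, was found in brain, mbt, 3dpf and MTX-3dpf, at percentiles of 90.4, 66.0, 57.3 and 89.4, and not in heart, eye, sperm or one-cell embryos. The liver peak at chr7:7800769-7800969, percentile 72.4, had the same 4 lists, with a percentile of 93.7 in brain, 16.0 in 3dpf and 98.7 in MTX-3dpf. Liver peaks far from any heart peak were found in none of the other lists at chr2:59054019-59054219, chr3:62296612-62296812 and chr21:7668210-7668410, with percentiles of 63.6, 54.0 and 50.8.

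Most isolated peaks recurred in another list, where a peak counts as found when it overlaps a peak of that list by at least 1 bp. At least 1 of the 7 other lists held 96.3% of the isolated heart-only peaks and 95.7% of the isolated liver-only peaks, and 134 and 153 peaks were found in none of them. For all tissue-only peaks these shares were 95.2 and 94.5%, against 99.8% of the shared peaks in either list. Brain held 79.3% of the isolated heart-only and 77.8% of the isolated liver-only peaks, and sperm 71.77 and 74.96%. The brain list, with 79008 peaks, and the sperm list, with 96505, are longer than those of heart and liver. At least 1 of the untreated embryo lists held 81.5% of the isolated heart-only and 85.2% of the isolated liver-only peaks.

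The lists differed in how they divided between the tissues, and eye differed most. Eye held 36.0% of the isolated heart-only peaks (95% interval 34.5 to 37.6%) and 21.6% of the isolated liver-only peaks (20.2 to 23.0%), whereas 91.3% of shared peaks were found in eye. The isolated peaks found in eye mostly ranked low there, with median percentiles of 10.18 for heart and 9.16 for liver. Shared heart peaks found in eye had a median percentile of 52.4 there. With the other lists limited to scores at or above their median, eye held 9.02% of heart-only and 7.86% of liver-only peaks. Part of the distance to the shared peaks goes with score, since within the lowest decile eye held 48.1% of the shared and 21.9% of the isolated peaks of heart, and 52.7 and 15.02% of those of liver. In the opposite direction, 3dpf held 69.2% of the heart-only and 75.1% of the liver-only isolated peaks, MTX-3dpf 63.6 and 71.1%, and mbt 67.3 and 71.4%. Over all scores, the intervals of the tissues did not overlap for these 3 embryo lists and for sperm (71.77 and 74.96%). For brain and one-cell embryos (61.9 and 64.1%) they did. These directions did not hold at every score. In the highest quartile sperm held 52.4% of heart and 33.0% of liver isolated peaks, and mbt 47.6 and 34.0%, with overlapping intervals. There 3dpf (53.7 and 58.3%) and MTX-3dpf (51.2 and 59.2%) kept the pooled direction. In the second quartile brain held 75.2% of heart (70.2 to 79.7%) and 64.2% of liver (59.1 to 68.9%). In every other quartile its share was higher for liver, with overlapping intervals.

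**Figure D3:**
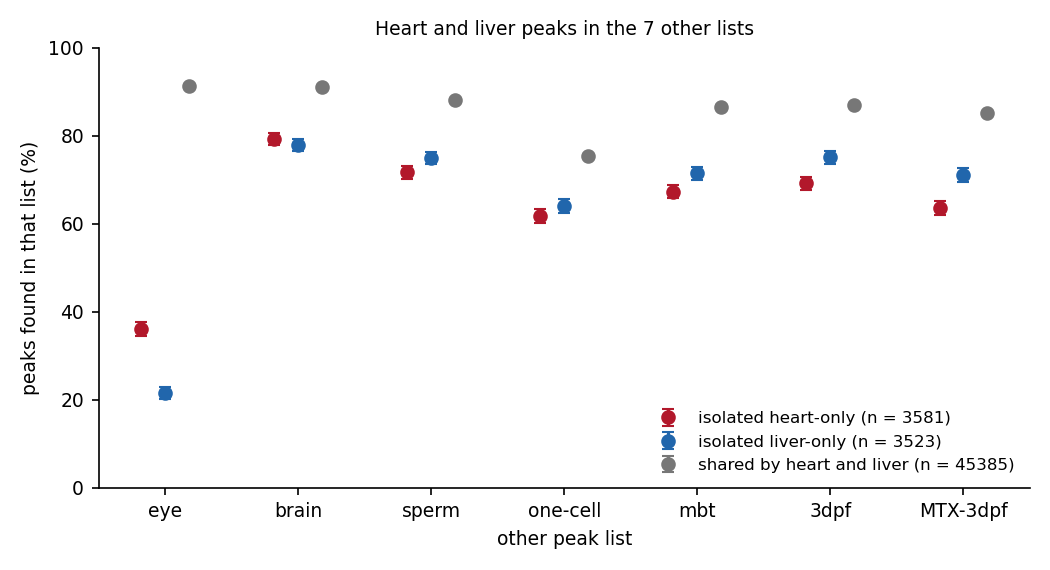
Share, in percent, of isolated heart-only, isolated liver-only and shared peaks that overlap a peak of each of the 7 other lists on the x axis. Error bars are 95% Wilson intervals; eye held 36.0% of the isolated heart-only and 21.6% of the isolated liver-only peaks, the widest gap between the tissues.

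Eye held a higher share of the heart-only peaks in each quartile of the score, although the intervals overlapped in the highest. Among isolated peaks of the lowest quartile of their list, 30.4% of those of heart and 17.8% of those of liver were found in eye. In the second quartile these shares were 78.1% of 315 heart peaks and 35.5% of 363 liver peaks, in the third 58 of 80 heart peaks and 70 of 140 liver peaks, and in the highest quartile 51.2% of 82 and 39.8% of 103. In the eye list, the found peaks of the lowest quartile had median percentiles of 7.18 for heart and 6.37 for liver. For the second quartile these medians were 25.6 and 20.2. Viewed from the eye list, 41467 of its 45785 peaks were found in both tissues, 1901 in heart without liver and 1258 in liver without heart. With centers within 1000 bp counted as found, 1347 eye peaks had a heart and no liver partner and 806 a liver and no heart partner. Heart, liver and eye share a lane, and eye has the shortest of the 9 lists.

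The combinations of lists in which an isolated peak recurred differed between the tissues, but those that require or leave out eye partly repeat the eye shares above. The most frequent combination in both was presence in all other lists except eye, with 1007 isolated heart-only peaks (28.1%) and 1288 isolated liver-only peaks (36.6%). All 7 other lists held 516 isolated heart-only peaks (14.4%) and 295 isolated liver-only peaks (8.37%), which are places where the missing tissue was alone in having no peak. Eye is 1 of the 7, so these peaks are 516 of the 1290 isolated heart-only and 295 of the 760 isolated liver-only peaks found in eye. They are not a difference apart from the eye share. A heart peak found in eye and brain, and in neither sperm nor any embryo list, occurred 112 times (3.13%, 95% interval 2.61 to 3.75%), and such a liver peak 35 times (0.993%, 0.715 to 1.38%). Among shared peaks, 58.6% were found in all 7 other lists and 4.84% of those of heart in all but eye. Within the lowest decile of the heart list, all 7 held 21.6% of the shared and 9.60% of the isolated peaks, and all but eye 28.9 and 35.2%. In the lowest decile of the liver list these shares were 22.4 and 6.37% for all 7, and 25.3 and 39.6% for all but eye.

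The tissue-only peaks did not fall in equal proportion on every chromosome. Heart-only peaks outnumbered liver-only peaks on 10 of the 25 chromosomes, liver-only peaks outnumbered heart-only peaks on 14, and chromosome 15 held 164 of each. For isolated peaks the majority turned round, with more of heart on 15 chromosomes and more of liver on 10. The heart-only share of tissue-only peaks was highest on chromosome 21, with 221 heart-only and 142 liver-only peaks (60.9%, 95% interval 55.8 to 65.8%), and on chromosome 11, with 149 and 114 (56.7%, 50.6 to 62.5%). It was lowest on chromosome 24, with 118 and 163 (42.0%, 36.4 to 47.8%), and on chromosome 20, with 161 and 203 (44.2%, 39.2 to 49.4%). On the 21 other chromosomes the interval contained 50%. Chromosome 4, whose long arm is rich in repeats and poor in genes, held 238 heart-only and 255 liver-only peaks (48.3%, 43.9 to 52.7%). Chromosomes were read 25 at a time, and an interval that misses 50% on 1 of them is not by itself a difference between the tissues.

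**Figure D4:**
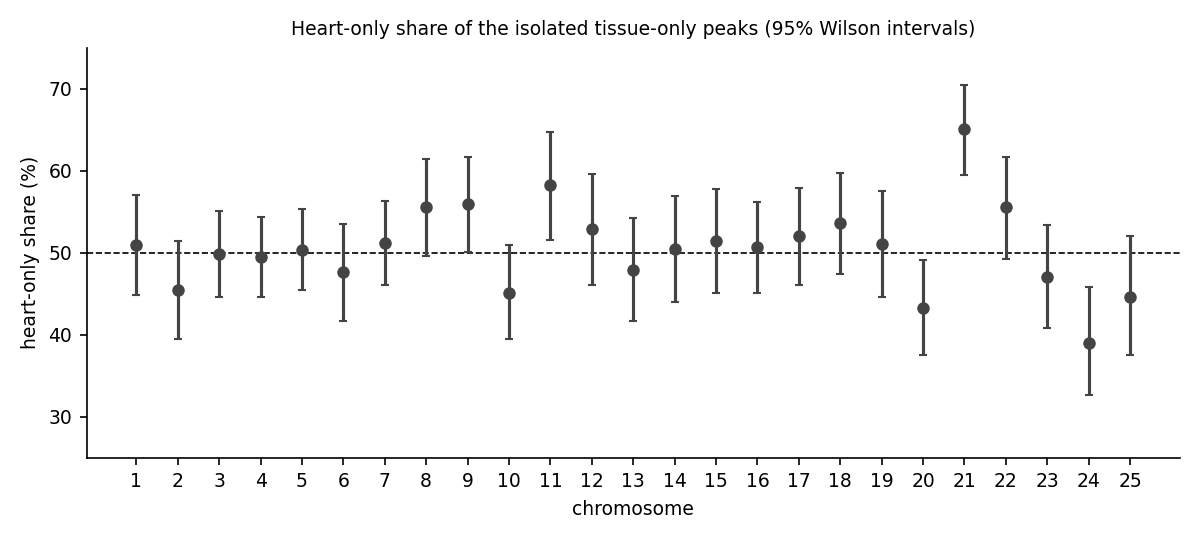
Heart-only share of the isolated tissue-only peaks, in percent, on each of the 25 chromosomes, with 95% Wilson intervals and a dashed line at 50%. Chromosome 21 stands highest, with 185 heart and 99 liver peaks (65.1%), and chromosome 24 lowest, with 82 and 128 (39.0%).

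On chromosome 21 the isolated heart-only peaks were more numerous and ranked higher than elsewhere. It carried 185 of them against 99 isolated liver-only peaks (65.1%, 95% interval 59.4 to 70.4%), and 11.2% of its heart peaks were isolated, which was the highest share of any chromosome. Their median percentile was 14.95, against 8.25 for isolated heart-only peaks on all other sequences. Above the median of the heart list stood 22 of the 185, against 140 of 3396 on all other sequences. Of these 185 peaks, 44.3% were found in eye and 37 peaks in all 7 other lists, against 35.6% found in eye and 14.1% in all 7 on all other sequences. Score was not matched in this comparison. Over the whole heart list, eye held 30.4% of the isolated peaks of the lowest quartile and 78.1% of those of the second. The liver-only peaks of chromosome 21 did not stand apart in rank, with a median percentile of 9.04 against 9.45 elsewhere. The stretch from 18 to 37 Mb, chosen after its values were seen, held 101 isolated heart-only peaks among 596 heart peaks. It held 31 isolated liver-only peaks among 530 liver peaks. Over the whole lists, 7.15% of heart and 7.02% of liver peaks were isolated. Of those 101 heart peaks, 54 were found in eye and 84 in sperm, against 36.0 and 71.8% of all isolated heart-only peaks. Their median percentile was 18.7, and score was not matched here either.

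In isolated peaks, the counterpart in liver was a shorter stretch of chromosome 3. From 15 to 20 Mb, limits also set after the values were seen, 22 of 129 liver peaks were isolated liver-only peaks. In the same stretch 2 of 108 heart peaks were isolated heart-only peaks. The median percentile of those 22 was 22.2, and 7 of them were among the 39 high-scoring liver peaks far from any heart peak. Brain, sperm, mbt, 3dpf and MTX-3dpf each held 21 of the 22, and eye held 6. Of all isolated liver-only peaks, brain held 77.8%, sperm 74.96%, mbt 71.4%, 3dpf 75.1%, MTX-3dpf 71.1% and eye 21.6%. Score was not matched between these groups. Chromosome 3 as a whole was even, with 174 isolated heart-only and 175 isolated liver-only peaks.

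Isolated peaks were spaced like the rest of their list, but an isolated peak was more often next to another isolated peak. The median distance to the nearest peak of the same list was 6818 bp for isolated heart-only peaks and 6981 bp for shared heart peaks, and 6678 and 6956 bp in liver. Displaced peaks lay closer to another peak of their own list, with medians of 4594 bp in heart and 3983 bp in liver. Where an isolated heart-only peak had a neighbor within 5000 bp, that neighbor was itself isolated in 13.4% of 1492 cases (95% interval 11.8 to 15.2%), compared with 6.93% for shared heart peaks. In liver these shares were 10.8% of 1475 cases (9.30 to 12.5%) and 7.29%. Isolated peaks that were nearest to each other each entered as a case, so cases were linked, which the intervals do not allow for. Neighbors that lay close together also shared part of the stretch searched for a center of the other tissue. Isolated and shared peaks were not matched for score. Of the 13045 windows of 100 kb that held any heart or liver peak, 5081 held an isolated peak. Of these 5081, 751 held isolated peaks of both tissues, 105 held at least 3 of heart and 82 at least 3 of liver. The numbers under random placement were not computed, so these counts do not show clustering.

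The window with the largest excess of heart was chr5:58400001-58500000, with 7 isolated heart-only peaks among 17 heart peaks and no isolated liver-only peak among 10 liver peaks. All 7 were found in sperm, 5 in brain and 2 in eye, against 71.8, 79.3 and 36.0% of all isolated heart-only peaks. It was followed, with 6 isolated heart-only peaks and no isolated liver-only peak each, by chr3:36000001-36100000 and by the first 100 kb of the unplaced sequences Zv9_scaffold3466 and Zv9_scaffold3469. The largest excesses of liver were at chr18:7800001-7900000 and chr4:60500001-60600000, each with 6 isolated liver-only peaks and no isolated heart-only peak. In the former, the heart list held no peak at all and every one of the 6 liver peaks was isolated. Windows with 5 isolated liver-only peaks and no isolated heart-only peak were chr10:9300001-9400000 and chr22:100001-200000. In the windows on chromosomes 4, 10 and 22 none of the isolated liver-only peaks was found in eye, and in that on chromosome 18 1 of the 6 was. Of all isolated liver-only peaks, eye held 21.6%.

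Where heart and liver shared a peak, its rank was nearly the same in both. Across the 45385 pairs, Spearman's rho of the percentiles was 0.950 and Pearson's r was 0.947, given as a description, since peaks of 1 library are not replicates. The median difference without regard to sign was 4.09 percentile points. A difference of over 25 points in favor of heart was seen in 485 pairs and in favor of liver in 463 pairs, and a difference of over 50 points in 14 and 38 pairs.

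The 3 pairs with the largest difference in favor of heart were at chr21:24666074-24666274, with percentiles of 77.4 in heart and 11.8 in liver, at chr4:28188777-28188977, with 68.4 and 5.91, and at chr21:36049873-36050073, with 65.5 and 6.13. Since the brain list is longer than the others, these places were also ranked among the 37961 peaks common to heart, liver, eye and brain. There heart stood at 73.9, liver at 4.24, eye at 68.9 and brain at 54.4 at the first, and the tissues in that order at 63.1, 1.70, 73.8 and 38.3 at the second and at 59.7, 1.77, 52.1 and 17.3 at the third. Eye stood nearer to heart than to liver at all 3. Brain did so at the first and the second, and stood nearer to liver at the third. In favor of liver, the pair at chr10:42903163-42903363 had percentiles of 0.168 in heart and 76.1 in liver, that on the unplaced sequence Zv9_NA407 at 46196 to 46396 had 15.1 and 88.8, and that at chr3:19909567-19909767 had 1.43 and 74.8. Ranked among the common peaks, heart, liver, eye and brain stood at 0.0211, 72.4, 33.1 and 25.1 at the first of these, at 5.57, 87.7, 7.13 and 88.1 at the second, and at 0.223, 70.8, 29.6 and 24.6 at the third. Eye stood nearer to heart at all 3. Brain also stood nearer to heart at the first and the third, and stood with liver at the second.

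Differences of rank were not scattered evenly along the genome. In the 1169 windows of 1 Mb with at least 15 shared pairs, the median difference of heart minus liver ranged from -11.7 to 19.3 percentile points, and the central 90% of the windows lay between -4.36 and 4.26 points. The window most in favor of heart was on chromosome 21 from 18 to 19 Mb, where 13 of 15 pairs ranked higher in heart. It was followed by chromosome 9 from 20 to 21 Mb, with a median of 15.7 points, and chromosome 5 from 58 to 59 Mb, with 12.0 points. Most in favor of liver were chromosome 10 from 19 to 20 Mb, with -11.7 points, chromosome 15 from 29 to 30 Mb, with -10.9, and chromosome 4 from 53 to 54 Mb, with -9.49. Of the 20 windows most in favor of heart, 8 lay on chromosome 9 and 3 on chromosome 21, and of the 20 most in favor of liver, 7 lay on chromosome 4.

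**Figure D5:**
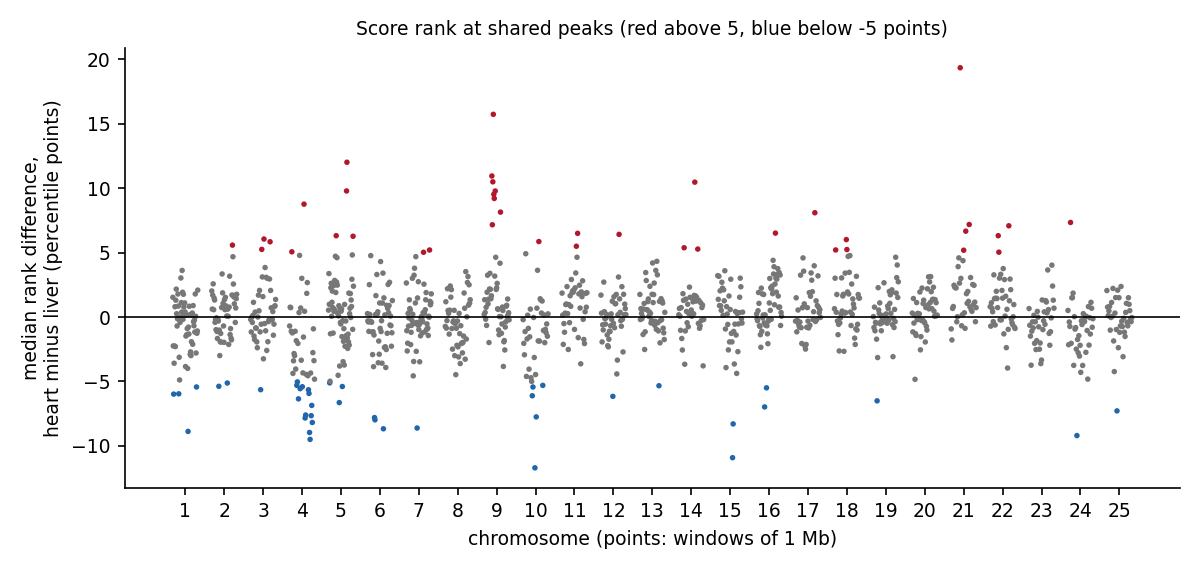
Median difference of score percentile between heart and liver (heart minus liver, in percentile points) at shared peaks in windows of 1 Mb, grouped by chromosome and ordered by position within it. Each point is 1 of 1169 windows; red points stand above 5 points and blue points below -5, and chromosome 9 and chromosome 4 hold runs of red and of blue points.

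The runs were compared with eye and brain by rank within the same set of peaks common to the 4 tissues, with the stretches chosen after their values were seen. On chromosome 9 from 17 to 25 Mb, 196 of 245 shared pairs ranked higher in heart, with a median difference of 8.98 points. The median percentile of the common peaks there was 49.7 in heart, 48.2 in eye, 47.4 in brain and 38.3 in liver, so that liver stood below the other 3. The stretch held 36 isolated heart-only and 22 isolated liver-only peaks. On chromosome 21 from 18 to 37 Mb the shift at pairs was smaller, with a median difference of 2.06 points and 299 of 477 pairs higher in heart. The median percentile of the common peaks there was 53.8 in heart, 51.8 in eye, 52.6 in brain and 44.3 in liver. On chromosome 3 from 15 to 20 Mb the median difference was -0.621 points, and 49 of 104 pairs ranked higher in heart. The common peaks of that stretch had median percentiles of 44.7 in heart, 40.5 in eye, 40.5 in brain and 49.5 in liver. On chromosome 4 from 44 to 58 Mb the median difference was -5.87 points and 126 of 565 pairs ranked higher in heart. There the median percentile was lowest in heart, at 32.9, with 37.8 in eye, 41.1 in liver and 50.7 in brain, and the stretch held 39 isolated heart-only and 74 isolated liver-only peaks.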

How the data were processed

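The authors aligned paired reads to Zv9 with BWA 0.5.8c, kept properly paired reads of mapping quality above 5, called peaks with MACS2 2.0.10.20120703, and extended each center by 100 bp to either side. The deposited score of a peak, whose unit is not given in the sources used here, was used as a percentile rank within its list. Which methylation-poor library served as background for each list is not given in the sources used here. The lists carry no read counts, so the reads behind a single peak are not known from them. By the read totals that the study gives, which were not used here, heart and liver were sequenced to a similar depth and eye to a lower one. The brain list pools 2 lanes.

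Overlaps, nearest centers, ranks and Wilson intervals came from scripts in Python 3.11.15 with pandas 2.3.3, NumPy 2.4.6 and SciPy 1.17.1, and the functions were tested on simulated lists. No test was run, because each tissue has 1 library. Members, groupings and named features were chosen with earlier results of these data known. Named were the 5 highest-ranked isolated peaks per list, the 3 shared pairs of largest rank difference each way, the 3 windows of 100 kb of largest excess each way with ties, the 2 chromosomes of highest and of lowest heart-only share, and chromosome 4. The limit of 5000 bp, the peaks beyond it and the stretches of chromosomes 3, 4, 9 and 21 fall outside this rule and were chosen after their values were seen. Alternatives were a stricter overlap, wider center distances, higher scores, the 25 chromosomes, merged peaks and lists left out. No genome sequence or gene annotation of the Zv9 build was used here, so peaks carry no gene names or sequences.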

Additional observations from a re-analysis of the deposited data

How the results depend on the processing

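No paired analysis was possible because each tissue has 1 library and no test was run. Heart-only and liver-only peaks numbered 2623 and 2619 when both lists were limited to scores at or above their median, 763 and 855 when the described list alone was so limited, and, with limits added after the data were seen, 2964 and 2821 with centers within 2000 bp and 2122 and 2040 with centers within 5000 bp counted as shared. Their median percentiles became 13.6 and 14.8 with an overlap of 100 bp, 8.58 and 9.42 with centers within 1000 bp, 56.6 and 57.4 with both lists limited, and 85.3 and 83.6 with the described list limited. The shares found in another list became 91.3 and 91.4% with an overlap of 100 bp, 97.9 and 97.9% with centers within 1000 bp, 98.1 and 97.8% with both lists limited, 93.4 and 93.3% with the described list limited, 73.8 and 77.3% with the other lists limited, 90.8 and 91.0% without brain, and 94.4 and 93.7% without one-cell embryos. Heart-only peaks outnumbered liver-only peaks on 2 chromosomes with the described list limited and on 15 with centers within 1000 bp, against 10 with overlap alone. Limiting a list by score removes weak peaks by construction. The cause of the other shifts was not tested. The share found in eye was higher for heart-only than for liver-only peaks under all 8 settings computed for it, but the shares moved from 40.5 and 26.9% as reported to 87.3 and 81.6% with both lists limited, 58.3 and 47.5% with the described list limited, and 9.02 and 7.86% with the other lists limited, where the gap was smallest. The heart-only share of tissue-only peaks on chromosome 21 stayed between 58.6 and 71.3% under the 6 alternatives computed for it. Merging peaks within 200 bp changed no value. The closest centers lay 632 bp apart in heart and 573 bp in liver, so merging could join no peaks of these lists. It is counted among the 8 settings and the 6 alternatives above and adds no support to them.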

Other observations

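The high-scoring liver peaks far from any heart peak included a group that ranked higher in MTX-3dpf than in 3dpf. Of the 39 such peaks, 27 were found in both 3dpf and MTX-3dpf, and in 8 of them (29.6%, 95% interval 15.9 to 48.5%) the percentile was over 25 points higher in MTX-3dpf than in 3dpf, while in none was it over 25 points lower. For the 15 of the 21 corresponding heart peaks found in both 3dpf lists, neither occurred. The 95% interval for the share of these heart peaks ranking over 25 points higher, 0 to 20.4%, overlapped that of liver. Over all isolated liver-only peaks found in both lists, 49 of 2390 (2.05%, 1.55 to 2.70%) ranked over 25 points higher in MTX-3dpf, against 11 of 2190 isolated heart-only peaks (0.502%, 0.281 to 0.897%) and 69 of 37839 liver peaks shared with heart (0.182%, 0.144 to 0.231%). A peak within 25 points of the top of the 3dpf list cannot rank over 25 points higher in MTX-3dpf. The 3dpf median was 77.5 for the shared liver peaks, so most of them could not qualify, and their share is low partly by construction. It was 56.6 for the isolated liver-only and 54.6 for the isolated heart-only peaks. The groups were not matched on 3dpf rank.

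Over all liver peaks found in both lists, the median percentile was 76.4 for 3dpf and 73.0 for MTX-3dpf. In the opposite direction, 88 isolated liver-only, 98 isolated heart-only and 919 shared liver peaks ranked over 25 points lower in MTX-3dpf. Examples, picked after their values were seen, give the size. The liver peak at chr4:7051668-7051868, percentile 62.3 in liver, ranked at 48.5 in 3dpf and 99.7 in MTX-3dpf. That at chr10:5392497-5392697, percentile 57.8 in liver, ranked at 6.61 in 3dpf, 82.6 in MTX-3dpf and 86.1 in brain. That at chr19:9042201-9042401, percentile 53.9 in liver, ranked at 20.9 in 3dpf, 86.4 in MTX-3dpf and 87.6 in brain. None of these 3 was found in heart, eye or one-cell embryos. Each list comes from 1 library of pooled fish or embryos, the pattern was seen before it was counted, and its cause was not tested.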
